A study of Mus musculus with 22 samples.

Results

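Cadherins, protocadherins and claudins are the cell surface proteins that hold neighbouring cells together, and their mRNAs were examined here in astrocytes of the mouse optic nerve. The genes were taken from the counts table as the protein coding genes whose symbol begins with Cdh and a digit, with Pcdh, or with Cldn and a digit. The endothelial genes Cdh5 and Cldn5 and the myelin gene Cldn11 were left out by name. This gave 111 of the 29367 genes in the table: 20 claudins, 5 type I cadherins, 12 type II cadherins, 5 other cadherins, 12 non-clustered protocadherins and 57 clustered protocadherins (14 alpha, 22 beta and 21 gamma).

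Cadherins bind the same or a related cadherin on the next cell in the presence of calcium, and classical cadherins are tied to actin inside the cell by catenins. Claudins span the membrane several times and form the strands of tight junctions, where some seal the space between cells and others leave a pore for ions. Clustered protocadherins are read from arrays of alternative first exons, each with its own promoter, and those of the alpha and gamma arrays are spliced to common last exons, while non-clustered protocadherins (delta-1 and delta-2) are single genes known mainly from neural development. In astrocytes N-cadherin and gamma protocadherins are known to take part in contacts with neurons and with other astrocytes.

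The mice were Rpl22 HA/HA, with an HA tag on a ribosomal protein (B6J.129(Cg)-Rpl22tm1.1Psam/SjJ) that is switched on by a constitutive Cre under the mouse GFAP promoter (the transgene Tg (GFAP-Cre) 73.12Mvs/J on B6.Cg), and the labels give their genotype as WT in all groups. They were 3 to 4 months old, and microbeads were injected into 1 eye to raise the intraocular pressure. The unmyelinated optic nerve head (ONH) and an equal length of the proximal myelinated optic nerve proper (ONP) were taken 7 or 30 days later, and polyadenylated mRNA on HA-tagged ribosomes was sequenced. Each library pooled tissue of 4 mice (2 male and 2 female), with 4 libraries per region at day 7 and 7 per region at day 30. Every group had received microbeads, and uninjured mice were not analysed here. The study took ONH and ONP tissue from the same mice. At day 30 libraries with the same number are taken here as the same pool, which the sample titles do not state. The day 7 libraries are named 1 to 4 in file order only.

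The 22 libraries held 16292489 to 33307092 counts, and 3 counts, taken as the smallest detectable amount, correspond to 0.0901 to 0.184 CPM (counts scaled to library depth). Levels are given as TMM-normalised CPM, and as CPM per kilobase of exon (RPKM) where genes are compared with each other. Astrocyte markers were abundant in every library, with a summed level over 8 genes of 13025 to 32229 CPM. Markers of other cells also moved with region and day. The summed level of 7 oligodendrocyte markers, all of them detected, was 18262 to 35116 CPM (ONH, day 7), 13211 to 40385 CPM (ONH, day 30), 80038 to 104950 CPM (ONP, day 7) and 24998 to 81972 CPM (ONP, day 30). Their part in the results below was not tested. As these are bulk samples, fewer cells of a type and less mRNA per cell cannot be told apart.

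**Figure D1:**
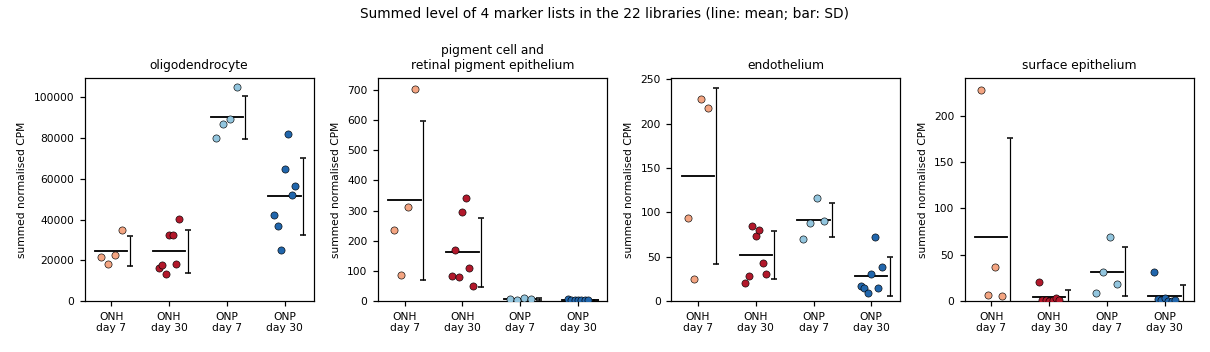
Summed TMM-normalised CPM (y axis, linear from 0) of 4 marker lists in each of the 22 libraries by group (x axis), where points are libraries, lines are means and bars are SD. Oligodendrocyte markers were highest in the ONP at day 7 (80038 to 104950 CPM), and pigment cell markers were higher in every ONH library (48.8 CPM or more) than in any ONP library (8.70 CPM or less).

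Levels differed widely within the families. Over all 22 libraries Pcdh9, a delta-1 protocadherin, had the highest level per kilobase (mean 31.6 RPKM). It was followed by the gamma genes Pcdhgc4 (15.9 RPKM) and Pcdhgc3 (14.2 RPKM), by Cdh2, which encodes N-cadherin (11.1 RPKM), and by the type II cadherin Cdh19 (8.21 RPKM). Cldn12 (5.44 RPKM) led the claudins. Of the 111 genes, 49 had at least 10 counts in every library, 47 were at 0 in at least 1 library and 6 never exceeded 3 counts. The expression filter passed 84 in at least 1 comparison, namely 11 claudins, 5 type I, 7 type II and 2 other cadherins, 11 non-clustered and 48 clustered protocadherins, and left 27 untested.

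Cdh2 was nearly level. Its values were 135, 86.6, 76.5 and 68.3 CPM in the ONH at day 7 and 102, 79.7, 79.6 and 83.6 CPM in the ONP at day 7. At day 30 they ran from 56.4 to 139 (median 98.4) CPM in the ONH and from 56.6 to 109 (median 84.1) CPM in the ONP. The groups overlapped throughout, and no comparison passed the threshold (adjusted p from 0.386 to 0.938). The other type I cadherins with the highest levels, Cdh1 (E-cadherin) and Cdh4 (R-cadherin), did not pass in any comparison either, and none of the 5 type I genes did.

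To show the start regions of genes that differed between ONH and ONP on both days, the 250 bases upstream of the annotated start are given for 3 genes that were lower in the ONH (Pcdh9, Pcdh17 and Cdh20) and for Cldn3, which was higher there. These 4 were picked after their values were seen. Cldn3 had the largest positive log2FC of the tested genes on both days, and the other 3 did not have the largest negative ones. They were read from RefSeq on GRCm38.p6 at chr14:93890680-93890929 (Pcdh9, minus strand), chr14:84443313-84443562 (Pcdh17, plus strand), chr1:104768270-104768519 (Cdh20, plus strand) and chr5:134985964-134986213 (Cldn3, plus strand), and are written from 5′ to 3′ on the strand of the gene. Capitals mark the GC box GGGCGG on either strand.
Pcdh9: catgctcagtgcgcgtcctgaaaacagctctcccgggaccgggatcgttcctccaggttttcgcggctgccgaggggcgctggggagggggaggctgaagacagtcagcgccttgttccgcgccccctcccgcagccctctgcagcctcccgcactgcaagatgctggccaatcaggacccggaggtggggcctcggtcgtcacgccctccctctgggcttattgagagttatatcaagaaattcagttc
Pcdh17: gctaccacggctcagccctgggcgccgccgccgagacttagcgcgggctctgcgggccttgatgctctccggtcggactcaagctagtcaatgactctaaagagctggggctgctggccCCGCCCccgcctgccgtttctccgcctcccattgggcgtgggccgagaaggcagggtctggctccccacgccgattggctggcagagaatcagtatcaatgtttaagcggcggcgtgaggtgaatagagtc
Cdh20: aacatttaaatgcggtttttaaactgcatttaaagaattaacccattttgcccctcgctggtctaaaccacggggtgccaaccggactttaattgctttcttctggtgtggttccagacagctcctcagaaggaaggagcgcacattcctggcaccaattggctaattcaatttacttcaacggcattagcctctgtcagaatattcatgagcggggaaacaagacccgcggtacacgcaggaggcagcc
Cldn3: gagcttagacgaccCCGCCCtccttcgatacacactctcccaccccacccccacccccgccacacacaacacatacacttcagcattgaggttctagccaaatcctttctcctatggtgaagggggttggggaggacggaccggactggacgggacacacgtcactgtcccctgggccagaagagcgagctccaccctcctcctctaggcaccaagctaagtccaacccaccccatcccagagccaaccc
Each was searched on both strands for GGGCGG, for the E-box CAGGTG, for AACAAT (a SOX-type motif) and for TATAAA. Pcdh17 and Cldn3 each held 1 GC box on the reverse strand, and no other motif of the 4 was in these windows, so no matches overlapped. Among 32851 upstream windows of that length in the RefSeq table, 32.7% held GGGCGG, 17.2% CAGGTG, 9.42% AACAAT and 12.4% TATAAA. Among the 50 windows found for 39 of the 111 genes the shares were 42%, 14%, 4.0% and 6.0%. Pcdh9 and Pcdh17 had GC-rich windows (63.6% and 64.8% G or C, with 18 and 21 CpG), and Cdh20 a less GC-rich one (47.6%, 10 CpG).

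The first question was how the ONH and ONP differ. At day 30, 31 of 79 tested genes of these families passed the threshold, 8 higher and 23 lower in the ONH, against 41.8% of all genes tested (21.8% higher and 20.0% lower). Their median log2FC was -0.52, against -0.01 over all genes. At day 7, 14 of 73 passed, 4 higher and 10 lower, against 13.2% of all genes (6.34% higher and 6.81% lower), with a median log2FC of -0.55 against 0.07. In number of calls the families were thus near the background on day 30. The day 7 count fell to 7 to 9 genes, 2 higher and 5 to 7 lower, when any single ONP library was left out. The regions did not overlap for 5 genes higher and 9 genes lower in the ONH at day 30 (9.26% and 7.09% of all genes), and for 4 higher and 15 lower at day 7 (9.89% and 11.8%). Of the 31 and 14 genes, 13 passed on both days (41.9% of the first and 92.9% of the second list), all in the same direction. These 2 comparisons share no library. The same overlap was not counted over all genes, of which 41.8% passed at day 30, so it cannot be called particular to these families. Without ONP day 30 libraries 5 and 7, whose microglia marker sums were the highest of their group, 30 genes passed at day 30, 7 higher and 23 lower. Cldn10 was the only gene called at day 7 alone.

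**Figure D2:**
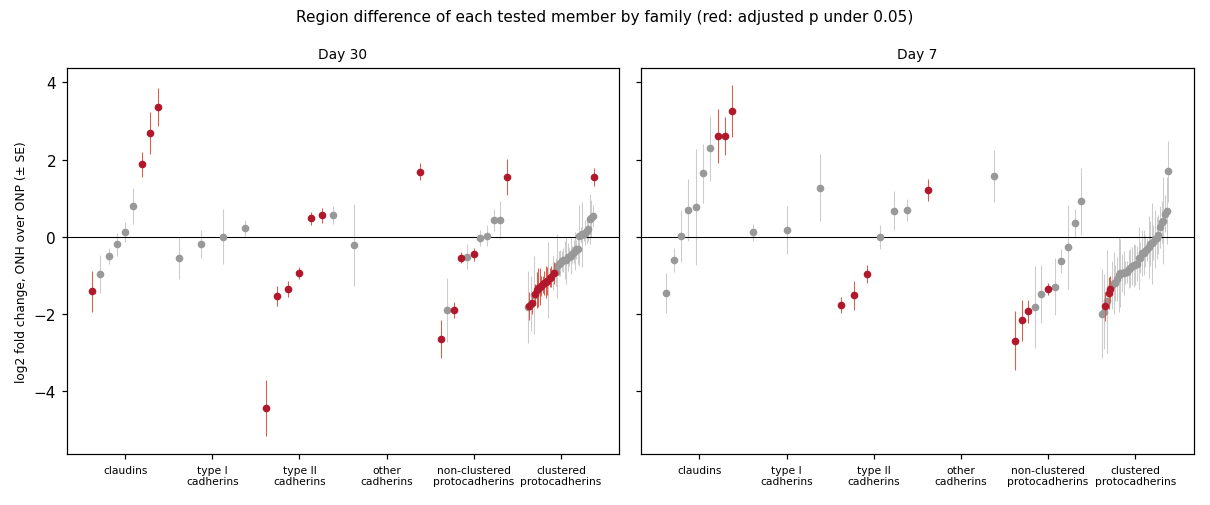
Log2 fold change of ONH over ONP (y axis, ± SE) for each tested gene by family (x axis), at day 30 (left, n = 7 per region) and day 7 (right, n = 4 per region), with genes at an adjusted p under 0.05 in red. Called claudins lie above 0 except Cldn9 at day 30, and called non-clustered and clustered protocadherins lie mostly below 0.

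Claudins were the family with the largest positive region differences. At day 30, 3 of 9 tested claudins were higher and 1 was lower in the ONH, against 21.8% and 20.0% of all genes. In number of calls claudins were thus near the background at day 30 (44.4% against 41.8%). At day 7, 3 of 10 were higher, against 6.34% of all genes. Cldn3, a barrier-forming claudin of epithelia, was 13.5, 5.95, 9.74 and 4.26 CPM in the ONH and 0.123, 1.27, 1.31 and 0.787 CPM in the ONP at day 7. At day 30 it ranged over 6.12 to 18.2 (median 8.07) CPM in the ONH and 0.195 to 2.84 (median 0.60) CPM in the ONP. Every ONH library was above every ONP library on both days (log2FC = 3.36 ± 0.49, adjusted p = 8.79e-05 at day 30 and log2FC = 3.26 ± 0.67, adjusted p = 0.00995 at day 7, ± SE here and below). In both comparisons Cldn3 met the expression filter only through the ONH libraries, so the size of its difference is uncertain.

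Cldn1, the main sealing claudin of the skin, followed the same order. It was 21.2, 7.95, 9.63 and 34.1 CPM (ONH) and 2.88, 2.16, 2.95 and 4.05 CPM (ONP) at day 7, with log2FC = 2.61 ± 0.48, adjusted p = 0.00581. At day 30 it was 4.03 to 12.2 (median 6.17) CPM in the ONH and 0.88 to 2.76 (median 2.08) CPM in the ONP, again without overlap (log2FC = 1.87 ± 0.32, adjusted p = 0.000311). Cldn19, known from kidney, Schwann cells and the retinal pigment epithelium, was 1.62 to 5.44 (median 3.84) CPM in the ONH and 0 to 1.23 (median 0.481) CPM in the ONP at day 30 (log2FC = 2.69 ± 0.53, adjusted p = 0.000935). Cldn19 also met the expression filter only through the ONH libraries. At day 7 it was 8.46, 2.6, 8.6 and 1.57 CPM and 0.306, 0.255, 2.34 and 1.42 CPM, and the difference did not pass (log2FC = 2.29 ± 0.83, adjusted p = 0.0981).

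Several markers of other cells moved the same way as these claudins. The 6 pigment cell and retinal pigment epithelium markers, all detected, summed to 85.8 to 705 CPM (ONH, day 7) and 48.8 to 342 CPM (ONH, day 30), against 4.65 to 8.70 and 1.91 to 6.65 CPM in the ONP. The 4 photoreceptor markers summed to 53.4 to 4209 CPM in the ONH and 1.51 to 93.9 CPM in the ONP. For 5 surface epithelium keratin and Trp63 markers the ONH and ONP ranges overlapped (0.376 to 227 and 0.146 to 68.9 CPM). The part of these cells in the claudin differences was not tested. Without ONH day 7 libraries 1 and 4, which had the highest sums of surface epithelium and photoreceptor markers, 17 genes passed at day 7, 2 higher and 15 lower.

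Cadherins with a region difference were mostly of type II. Of 7 tested type II genes, 2 were higher and 4 lower in the ONH at day 30 (85.7% called, against 41.8% of all genes). At day 7, 3 of 6 were lower, against 6.81% of all genes. Cdh20, a type II cadherin, was 12.5, 9.81, 14.8 and 13.9 CPM in the ONH and 44.2, 45.6, 36.5 and 50.1 CPM in the ONP at day 7. At day 30 it was 5.61 to 13.4 (median 11.9) CPM in the ONH and 17.4 to 31.3 (median 25.9) CPM in the ONP. All ONH libraries were below all ONP libraries on both days (log2FC = -1.36 ± 0.21, adjusted p = 0.000123 at day 30 and log2FC = -1.77 ± 0.21, adjusted p = 0.000464 at day 7).

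Cdh10 was 2.01 to 6.25 (median 2.9) CPM in the ONH and 6.59 to 13.9 (median 11.3) CPM in the ONP at day 30, without overlap (log2FC = -1.54 ± 0.27, adjusted p = 0.000314). Its day 7 values were 7.76, 3.11, 3.82 and 6.28 CPM and 11.7, 18.9, 11.7 and 18.9 CPM, also without overlap (log2FC = -1.53 ± 0.37, adjusted p = 0.0212), a call that was lost without ONP library 2 (adjusted p = 0.0725) or 4 (0.0742). Cdh11, first described in osteoblasts, was 21.3 to 39.5 (median 26.6) CPM in the ONH and 37.3 to 61.5 (median 56.3) CPM in the ONP at day 30 (log2FC = -0.94 ± 0.15, adjusted p = 0.000173), where the ranges met narrowly. The day 7 levels were 37, 25.2, 20.3 and 37.7 CPM and 55.3, 62, 67.5 and 54.6 CPM, with all ONH values lower (log2FC = -0.97 ± 0.23, adjusted p = 0.0182). That call was lost without ONP library 2 (0.0575) or 3 (0.0644).

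Cdh8, a type II cadherin of forebrain circuits, was close to absent outside the ONP at day 30. There it was 0.614 to 2.43 (median 1.67) CPM, in all 7 libraries. In the ONH it was at 0 in all 4 libraries of day 7 and in 4 of 7 at day 30 (9 counts in all), and in the ONP at day 7 it had 8 counts, all in library 1. The day 30 region difference passed (adjusted p = 0.000213), but the gene met the expression filter only through the ONP libraries, so no fold is given. Cdh22 was slightly higher in the ONH at day 30, with 5.87 to 9.93 (median 7.81) CPM against 4.54 to 7.52 (median 5.58) CPM and overlapping ranges (log2FC = 0.47 ± 0.16, adjusted p = 0.0317). That call held in only 6 of 14 fits with 1 library left out, being lost without ONH libraries 1, 4 or 7 or ONP libraries 1, 2, 3, 5 or 6 (adjusted p from 0.05 to 0.0716), and without ONP libraries 5 and 7 together (0.0655). Cdh6, a type II cadherin known from the kidney, was the other gene called higher, with 7.92 to 18.4 (median 10.7) CPM against 5.06 to 10.6 (median 8.15) CPM and overlapping ranges (log2FC = 0.55 ± 0.20, adjusted p = 0.0372). Its call also held in only 6 of 14 such fits, being lost without ONH libraries 1, 2 or 3 or ONP libraries 1, 2, 5, 6 or 7 (adjusted p from 0.0536 to 0.0817), and without ONP libraries 5 and 7 together (0.126).

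Among the other cadherins Cdh13, or T-cadherin, which is held by a lipid anchor and has no tail inside the cell, was higher in the ONH. It was 122, 57.6, 42.9 and 72.8 CPM in the ONH and 32.9, 31.2, 29.1 and 36.2 CPM in the ONP at day 7, and 37.4 to 112 (median 66.6) CPM and 15.8 to 26.3 (median 19.6) CPM at day 30. The groups did not overlap on either day (log2FC = 1.68 ± 0.22, adjusted p = 2.73e-05 at day 30 and log2FC = 1.21 ± 0.29, adjusted p = 0.0209 at day 7). The day 7 difference was lost without any single ONP library (adjusted p from 0.0544 to 0.0713), and without ONH libraries 1 and 4 it was log2FC = 0.63 (adjusted p = 0.0634). The summed level of 6 endothelial markers, all detected, was 24.5 to 228 CPM (ONH, day 7), 20.5 to 84.9 CPM (ONH, day 30), 70.1 to 116 CPM (ONP, day 7) and 8.99 to 72.2 CPM (ONP, day 30), and its part in the Cdh13 difference was not tested.

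Non-clustered protocadherins were lower in the ONH wherever a call was made, except Pcdh19. At day 30, 4 of 11 tested genes were lower and 1 was higher, against 20.0% and 21.8% of all genes. In number of calls the family was thus near the background at day 30 (45.5% against 41.8%). At day 7, 4 of 11 were lower, against 6.81% of all genes. Pcdh9 was 141, 146, 121 and 156 CPM in the ONH and 303, 361, 376 and 432 CPM in the ONP at day 7, where every ONH library was below every ONP library (log2FC = -1.36 ± 0.16, adjusted p = 0.000523). At day 30 it was 107 to 185 (median 164) CPM and 155 to 289 (median 234) CPM, so that the ranges overlapped (log2FC = -0.55 ± 0.15, adjusted p = 0.00806).

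Pcdh11x, the X-linked delta-1 protocadherin, was 1.25 to 1.84 (median 1.51) CPM in the ONH and 3.46 to 7.83 (median 5.79) CPM in the ONP at day 30 (log2FC = -1.91 ± 0.21, adjusted p = 7.88e-06). Its day 7 values were 0.593, 1.11, 3.3 and 1.85 CPM and 8.34, 8.78, 5.7 and 8.47 CPM (log2FC = -2.18 ± 0.53, adjusted p = 0.0217), and this call held in 4 of 8 fits with 1 library left out. It was lost without ONH library 2 or ONP libraries 1, 2 or 4 (adjusted p from 0.0544 to 0.0679). The ONH values were below the ONP values without overlap on both days.

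Among the tested non-clustered genes Pcdh20 had the region log2FC of largest size on both days. In both comparisons Pcdh20 met the expression filter only through the ONP libraries, so the size of its difference is uncertain. At day 30 it was 0.0452 to 2.81 (median 1.04) CPM in the ONH and 5.94 to 11 (median 7.43) CPM in the ONP (log2FC = -2.66 ± 0.49, adjusted p = 0.000525). It measured 2.1, 0.329, 0.171 and 1.51 CPM and 3.86, 10.4, 8.62 and 4.2 CPM at day 7, again without overlap (log2FC = -2.71 ± 0.77, adjusted p = 0.042). The day 7 call held in 2 of 8 fits with 1 library left out and was lost without ONH libraries 2 or 3 or any ONP library (adjusted p from 0.0605 to 0.124).

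Pcdh19, a delta-2 gene linked to epilepsy in girls, ran against the others at day 30, with 0.719 to 6.2 (median 1.25) CPM in the ONH and 0.391 to 1.12 (median 0.557) CPM in the ONP (log2FC = 1.55 ± 0.47, adjusted p = 0.016). The ranges overlapped, and without ONH library 6 the difference was log2FC = 0.95 (adjusted p = 0.0552). At day 30 Pcdh19 met the expression filter only through the ONH libraries, so the size of its difference is uncertain. At day 7 it was 0, 0.239, 2.62 and 2.41 CPM in the ONH and 2.27, 0.636, 1.27 and 2.17 CPM in the ONP (log2FC = -0.27 ± 1.09, adjusted p = 0.897).

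Markers of the oligodendrocyte lineage were also lower in the ONH. Of 7 oligodendrocyte markers 6 were lower at day 30 and 7 at day 7. The 2 oligodendrocyte precursor markers, both detected, summed to 24.4 to 93.7 CPM (ONH, day 7) and 51.8 to 86.2 CPM (ONH, day 30), against 97.2 to 119.8 and 96.7 to 155 CPM in the ONP, without overlap on either day. Singly, 1 of these 2 passed as lower at day 30 and none at day 7 (smallest adjusted p = 0.174). Of 8 astrocyte markers 3 were lower in the ONH at day 30 (Gfap, Aqp4 and Slc1a2) and 2 at day 7 (Aqp4 and Slc1a2), and none was higher. The part of these cells in the genes lower in the ONH was not tested.

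Of 46 tested clustered protocadherins 15 passed at day 30, or 32.6% against 41.8% of all genes. Of these 15, 14 were gamma genes out of 21 tested (66.7%). Of the gamma genes 13 were lower in the ONH and 1 was higher, and of 20 tested beta genes 1 was lower. None of 5 tested alpha genes passed. At day 7, 7.32% of the tested clustered genes passed against 13.2% of all genes. The calls were 2 of 21 gamma genes and 1 of 19 beta genes, all lower in the ONH. The alpha and gamma genes share their last exons, and gamma genes shared 27.8% to 66.8% of their annotated exon bases with others (median 44.6%), so the division of reads among single gamma genes by Salmon is uncertain. Beta genes shared 0% to 9.67% (median 0%).

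**Figure D3:**
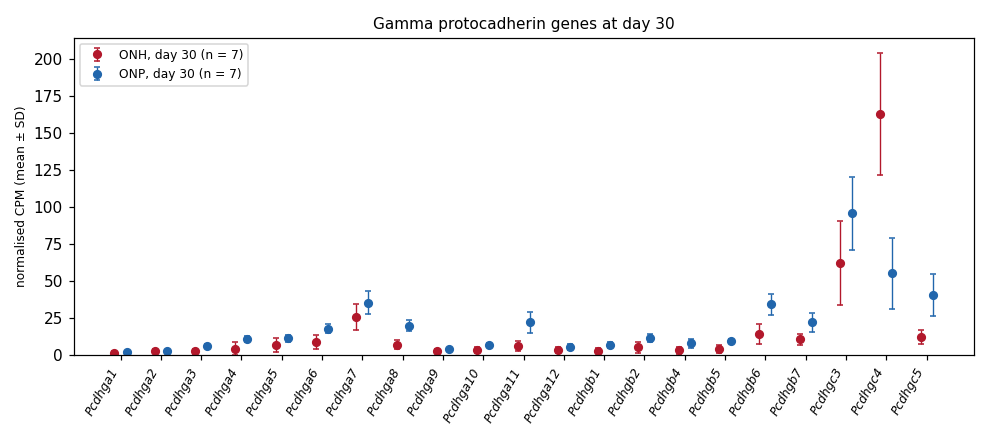
Level of the 21 gamma protocadherin genes (y axis, TMM-normalised CPM, mean ± SD, linear from 0) in ONH and ONP at day 30 (n = 7 per region). Pcdhgc4 was higher in the ONH (125 to 250 CPM against 35.8 to 103 CPM), and Pcdhgc5 was lower (6.98 to 21.0 CPM against 24.6 to 61.3 CPM).

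Pcdhgc4, the C-type gamma protocadherin known to be required for the survival of interneurons, was the gene that ran against its array. At day 30 it was 125 to 249.5 (median 149.9) CPM in the ONH and 35.8 to 103 (median 46.2) CPM in the ONP, without overlap (log2FC = 1.55 ± 0.23, adjusted p = 9.99e-05). The day 7 libraries had 35.6, 114, 129 and 47.5 CPM and 30.2, 1.02, 17.8 and 53.4 CPM, with overlap (log2FC = 1.69 ± 0.80, adjusted p = 0.189). It made up 33% to 60.6% of the summed gamma level in the ONH and 9.21% to 19.3% in the ONP at day 30. At day 7 these shares were 10.4% to 60.1% and 0.256% to 14.8%.

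Pcdhgc5, the neighbouring C-type gene, showed the opposite order. It was 6.98 to 21 (median 11.4) CPM in the ONH and 24.6 to 61.3 (median 42.3) CPM in the ONP at day 30 (log2FC = -1.73 ± 0.27, adjusted p = 0.000159), and 18.7, 16.1, 6.84 and 8.97 CPM and 31.9, 24.9, 19.1 and 7.98 CPM at day 7 (log2FC = -0.70 ± 0.44, adjusted p = 0.328). The regions were separate at day 30 only. Pcdhgc3, the C-type gene with the second highest level per kilobase among gamma genes, was 35.6 to 107 (median 53.5) CPM in the ONH and 63.1 to 131 (median 96.8) CPM in the ONP, which did not pass (log2FC = -0.63 ± 0.26, adjusted p = 0.0595).

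In the A and B groups of the gamma array, 12 genes were lower in the ONH at day 30, with log2FC from -0.94 (Pcdhga10) to -1.80 (Pcdhga11). Pcdhga11 was 1.44 to 9.59 (median 7.41) CPM in the ONH and 15.1 to 36.3 (median 20.2) CPM in the ONP at day 30 (log2FC = -1.80 ± 0.36, adjusted p = 0.000894). At day 7 it was 17.6, 6.43, 5.53 and 19.2 CPM and 28.9, 47.7, 30.3 and 29.6 CPM (log2FC = -1.47 ± 0.42, adjusted p = 0.0417), a call held in 2 of 8 fits with 1 library left out and lost without ONH libraries 2 or 3 or any ONP library (adjusted p from 0.0688 to 0.125). Both days were without overlap.

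Pcdhgb5 also passed on both days. It was 0.429 to 7.13 (median 4.8) CPM in the ONH and 7.48 to 10.8 (median 9.83) CPM in the ONP at day 30 (log2FC = -1.18 ± 0.42, adjusted p = 0.0343), and 6.73, 4.31, 2.39 and 4.15 CPM and 13.9, 23, 13.3 and 12.6 CPM at day 7 (log2FC = -1.81 ± 0.38, adjusted p = 0.0103). The regions did not overlap on either day. At day 30 Pcdhgb5 met the expression filter only through the ONP libraries, so the size of that difference is uncertain. The day 30 call was lost without ONH libraries 1 or 5 or ONP libraries 1, 2, 3 or 6 (adjusted p from 0.0507 to 0.0629). Pcdhga8 was 3.35 to 11.7 (median 6.16) CPM against 16.2 to 25 (median 18.3) CPM at day 30 (log2FC = -1.49 ± 0.27, adjusted p = 0.000456), and Pcdhgb6 was 8.6 to 27.7 (median 10.4) CPM against 25.1 to 43.3 (median 33.2) CPM (log2FC = -1.29 ± 0.26, adjusted p = 0.00098). Pcdhga6, Pcdhga10, Pcdhgb1, Pcdhgb2, Pcdhgb4 and Pcdhgb7 passed at day 30 with log2FC from -0.94 to -1.38 and adjusted p from 0.00222 to 0.0245, and with overlapping ranges. The weakest were Pcdhga3 (log2FC = -1.33 ± 0.52, adjusted p = 0.0491) and Pcdhga4 (log2FC = -1.30 ± 0.48, adjusted p = 0.0404), also with overlap. Pcdhga3 was lost without ONH libraries 1, 5 or 7 or any ONP library (adjusted p from 0.0507 to 0.0894), Pcdhga4 without ONH libraries 1, 4, 5, 6 or 7 or ONP libraries 1, 2, 3 or 5 (0.0605 to 0.075), and both without ONP libraries 5 and 7 together (0.0586 and 0.0739).

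Pcdhb9, the beta gene with the highest level per kilobase, was 6.55 to 17.2 (median 9.87) CPM in the ONH and 16.8 to 33.2 (median 29.1) CPM in the ONP at day 30 (log2FC = -1.23 ± 0.22, adjusted p = 0.000402). At day 7 it was 10.4, 7.33, 3.99 and 9.25 CPM and 20.8, 17.2, 21.2 and 20.9 CPM (log2FC = -1.35 ± 0.31, adjusted p = 0.0176). The ranges met only at day 30, and the day 7 call was lost without ONP library 3 (adjusted p = 0.0545) or 4 (0.0556).

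When counts were summed over each array, which removes the division of shared reads, the alpha array was lower in the ONH at day 30 (log2FC = -0.87 ± 0.30, adjusted p = 0.0296). The alpha sum was low, at 1.60 to 5.69 CPM in the ONH and 4.89 to 9.82 CPM in the ONP, with overlap. The beta array was also lower (log2FC = -0.44 ± 0.11, adjusted p = 0.00601), at 50.8 to 79.7 CPM against 76.8 to 93.0 CPM, again with overlap. The gamma array, at 261 to 452 CPM in the ONH and 329.8 to 534 CPM in the ONP, did not pass (log2FC = -0.26 ± 0.15, adjusted p = 0.187). At day 7 none of the 3 sums passed (adjusted p from 0.148 to 0.828).

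The second question was how the genes changed between day 7 and day 30 in each region. In the ONP, 11 of 81 tested genes passed, 3 higher and 8 lower at day 30, against 17.0% of all genes (7.82% higher and 9.21% lower). With scaling by library size only, 66.7% of all called genes were higher at day 30, compared with 45.9% under TMM, while the calls in these families were 3 higher and 6 lower and none changed direction. Their median log2FC was -0.28, against -0.01 over all genes. The days did not overlap for 2 genes higher and 6 lower at day 30 in the ONP (6.2% and 5.79% of all genes), and for none in the ONH (1.76% and 0.53%). DESeq2 called 19 of the families' genes in the ONP, against 20.2% of all genes, while a single edgeR fit of all 4 groups called only 4 of the 11 (Cldn10, Pcdh9, Pcdh17 and Cdh20). In the ONH none of 79 passed, nor did any other gene by edgeR (0.0% of all genes). At an unadjusted p under 0.05 there were 4 of the 79 in the ONH (Cldn1, Pcdhgc4, Pcdh1 and Pcdhb19), against 13.9% of all genes. DESeq2 called 2.49% of all genes in the ONH and none of these families.

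**Figure D4:**
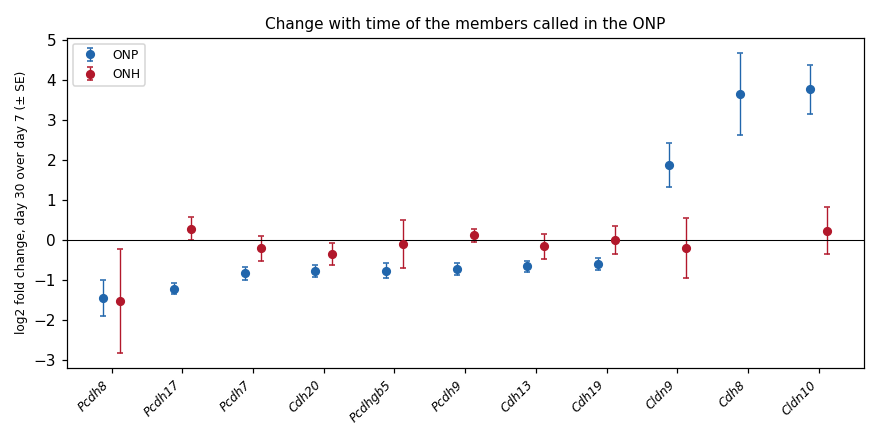
Log2 fold change of day 30 over day 7 (y axis, ± SE) in ONP (blue) and ONH (red) for the 11 genes that passed in the ONP, ordered by their ONP value (x axis; 7 and 4 libraries per region). Cdh8 has no ONH value as it was not tested there. Pcdh17 and Pcdh9 fell in the ONP while their ONH values were 0.28 and 0.12, neither past the threshold.

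Non-clustered protocadherins gave 4 of the 8 falls in the ONP, from 11 genes tested (36.4%, against 9.21% of all genes). A single fit of all 4 groups kept only Pcdh9 and Pcdh17 of these 4. Pcdh17, a delta-2 protocadherin known from axon growth and synapse assembly, fell from 49.5, 42.1, 39.9 and 46.3 CPM at day 7 to 14.5 to 25.5 (median 19.4) CPM at day 30 (log2FC = -1.22 ± 0.14, adjusted p = 0.000435). No day 30 library reached the lowest day 7 library, and the call held in all 11 fits with 1 library left out. In the ONH it was 7.7, 10.2, 8.43 and 19.5 CPM at day 7 and 7.93 to 17.7 (median 14.8) CPM at day 30 (log2FC = 0.28 ± 0.29, adjusted p = 0.695).

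The region difference of Pcdh17 was thus larger at day 7, when the groups were apart (log2FC = -1.94 ± 0.30, adjusted p = 0.00217), than at day 30, when they overlapped (log2FC = -0.46 ± 0.17, adjusted p = 0.0349). The day 30 call was lost without ONH libraries 1, 3 or 4 or ONP libraries 1, 4 or 6 (adjusted p from 0.0516 to 0.0784), and without ONP libraries 5 and 7 together (0.0601). The change in the ONP minus that in the ONH was log2FC = -1.50 ± 0.32 (adjusted p = 0.0328), the only call among 84 tested genes, against 0.543% of all genes (0.149% positive and 0.394% negative). It held in 10 of 22 fits with 1 library left out. It was lost without ONH day 30 libraries 2, 5 or 6, ONH day 7 libraries 1 or 2, ONP day 30 libraries 1, 2, 3 or 6, or ONP day 7 libraries 1, 2 or 4 (adjusted p from 0.0516 to 0.117). It was also lost under scaling by library size only (adjusted p = 0.0604), which moved the median of all genes by 0.15 for this contrast. DESeq2 called Pcdh17 (adjusted p = 0.00287), Cldn10 and Pcdh9 for this difference, and 2.28% of all genes.

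**Figure D5:**
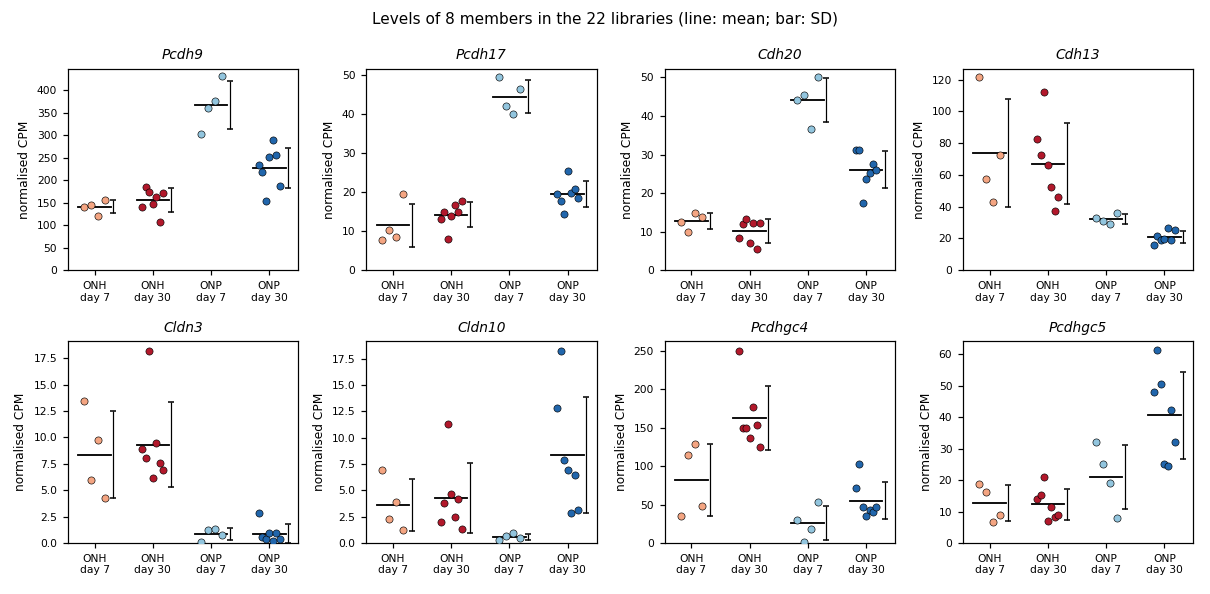
TMM-normalised CPM (y axes, linear from 0) of 8 genes in the 22 libraries by group (x axes), where points are libraries, lines are means and bars are SD. Pcdh9, Pcdh17 and Cdh20 stand highest in the ONP at day 7, Cdh13, Cldn3 and Pcdhgc4 stand higher in the ONH at day 30, and Cldn10 is lowest in the ONP at day 7 (0.245 to 0.944 CPM).

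Pcdh9 fell in the ONP, where none of its day 30 libraries reached the lowest of day 7 (log2FC = -0.72 ± 0.16, adjusted p = 0.00989), and did so in all 11 fits with 1 library left out. In the ONH its change did not pass (log2FC = 0.12 ± 0.16, adjusted p = 0.766), and the difference between the regions did not either (log2FC = -0.84 ± 0.22, adjusted p = 0.0813). Pcdh7, a further delta-1 gene, was 23.7, 20.3, 31.3 and 31 CPM at day 7 and 12 to 18.8 (median 15.2) CPM at day 30 in the ONP, without overlap (log2FC = -0.84 ± 0.16, adjusted p = 0.00625). In the ONH it was 26, 11.6, 19.2 and 10.9 CPM and 7.08 to 20.0 (median 14.5) CPM (log2FC = -0.21 ± 0.32, adjusted p = 0.786).

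Pcdh8, a delta-2 gene induced by neural activity, was 1.84, 3.31, 10.5 and 4.35 CPM at day 7 and 1.07 to 3.55 (median 1.79) CPM at day 30 in the ONP, with overlap (log2FC = -1.45 ± 0.45, adjusted p = 0.043). ONP day 7 library 3 stood highest, and without it the difference was log2FC = -0.80 (adjusted p = 0.215). The call held in 2 of 11 fits with 1 library left out, being lost also without ONP day 30 libraries 1, 2, 3, 4, 6 or 7 or ONP day 7 libraries 2 or 4 (adjusted p from 0.0542 to 0.0816).

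Among cadherins, Cdh20 fell in the ONP between the days (log2FC = -0.79 ± 0.15, adjusted p = 0.00543), with all day 30 libraries below those of day 7 and the call kept in all 11 fits with 1 library left out. Cdh13 fell as well (log2FC = -0.66 ± 0.14, adjusted p = 0.00882), also without overlap and in all 11 such fits, though not in the single fit of all 4 groups (adjusted p = 0.136). In the ONH neither change passed (log2FC = -0.35 ± 0.27, adjusted p = 0.58 for Cdh20 and log2FC = -0.16 ± 0.32, adjusted p = 0.846 for Cdh13). Cdh19, known from the Schwann cell lineage, was 34.1, 50.2, 44.4 and 29.9 CPM at day 7 and 22.7 to 32.9 (median 25.2) CPM at day 30 in the ONP (log2FC = -0.61 ± 0.16, adjusted p = 0.0233). Its ranges overlapped, and the call was lost without ONP day 7 library 2 (adjusted p = 0.0803) or 3 (0.0630).

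Of 48 tested clustered genes only Pcdhgb5 passed in the ONP, or 2.08% against 17.0% of all genes. It was lower at day 30 (log2FC = -0.77 ± 0.19, adjusted p = 0.0176). All day 30 libraries were below those of day 7, and the call was lost without ONP day 7 library 2 (log2FC = -0.52, adjusted p = 0.0564), the highest of that group. The array sums did not pass in either region between the days (adjusted p from 0.295 to 0.914).

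The 8 falls stood beside a fall of oligodendrocyte markers in the ONP, where 6 of 7 passed with a median log2FC of -0.89, and of 3 of 6 endothelial markers (median log2FC -1.68). Of all genes 9.21% passed as lower there. All tested markers of surface epithelium (4), pigment cells (3) and photoreceptors (3) also had a negative log2FC, and 1 of each list passed. None of 8 astrocyte markers passed (median log2FC 0.28). The ONP sums of oligodendrocyte markers did overlap between the days, at 80038 to 104950 CPM and 24998 to 81972 CPM. The part of these cells in the falls was not tested. Without ONP day 30 libraries 5 and 7, 13 genes passed, 4 higher and 9 lower, and Cdh19 was no longer among them (adjusted p = 0.0581).

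The 3 genes called higher at day 30 in the ONP were low at day 7. Cldn10, a claudin that forms ion-selective pores, went from 0.245, 0.636, 0.944 and 0.525 CPM at day 7 to 2.82 to 18.3 (median 6.92) CPM at day 30. The groups did not overlap (log2FC = 3.76 ± 0.61, adjusted p = 0.0023), and the difference held in all 11 fits with 1 library left out. Cldn10 met the expression filter only through the day 30 libraries, so the size of this difference is uncertain. In the ONH it was 6.89, 2.3, 3.87 and 1.23 CPM and 1.35 to 11.3 (median 3.84) CPM (log2FC = 0.23 ± 0.59, adjusted p = 0.882).

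Between the regions, Cldn10 was higher in the ONH at day 7, without overlap (log2FC = 2.6 ± 0.70, adjusted p = 0.0349), and its regions overlapped at day 30 (log2FC = -0.97 ± 0.48, adjusted p = 0.119). At day 7 Cldn10 met the expression filter only through the ONH libraries, so the size of that difference is uncertain. The day 7 call held in 2 of 8 fits with 1 library left out and was lost without ONH libraries 1 or 3 or any ONP library (adjusted p from 0.0630 to 0.106), and without ONH libraries 1 and 4 together (0.0604). The change in the ONP minus that in the ONH did not pass (log2FC = 3.54 ± 0.84, adjusted p = 0.0554) by edgeR.

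Cldn9, a claudin of the inner ear, was 1.16, 0.318, 1.52 and 1.99 CPM at day 7 and 1.68 to 7.7 (median 4.81) CPM at day 30 in the ONP (log2FC = 1.87 ± 0.54, adjusted p = 0.0345). At day 30 the ONH had 0.135 to 4.07 (median 1.35) CPM and was lower than the ONP (log2FC = -1.42 ± 0.54, adjusted p = 0.0428), though not when same-numbered libraries were paired (adjusted p = 0.0576). The ranges overlapped in both comparisons. In both, Cldn9 met the expression filter only through the ONP day 30 libraries, so the sizes of these differences are uncertain. In the ONP the call was lost without day 30 libraries 1, 2, 3 or 6 or day 7 libraries 1, 2 or 3 (adjusted p from 0.0546 to 0.0737), and at day 30 without ONH libraries 2, 4, 6 or 7 or ONP libraries 1, 2, 3, 4 or 6 (adjusted p from 0.0545 to 0.0868). Cdh8 was the third gene called (adjusted p = 0.0304), with the 8 counts of ONP library 1 at day 7 and 219 counts over 7 libraries at day 30. It met the expression filter only through the day 30 libraries, so no fold is given, and the call was lost without ONP day 30 library 6 or day 7 libraries 2, 3 or 4 (adjusted p from 0.0523 to 0.0772).

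The proteins that anchor cadherins and claudins inside the cell, and related junction genes, were taken from hand-written lists. Of 14 adherens junction partners in the ONP, 1 rose and 6 fell between day 7 and day 30, where 17.0% of all genes passed. They included Jup, or plakoglobin (log2FC = -0.90 ± 0.17, adjusted p = 0.00533), and Ctnnd1, or p120 catenin, which steadies cadherins at the surface (log2FC = -0.50 ± 0.10, adjusted p = 0.00556). Of 17 tested tight junction partners 1 rose and 5 fell, among them the junctional adhesion molecule Jam3 (log2FC = -0.93 ± 0.10, adjusted p = 0.000435). None of 3 tested desmosome genes passed, and of 11 large or atypical cadherins 1 rose and 3 fell, including Fat1 (log2FC = -0.73 ± 0.16, adjusted p = 0.00954). In the ONH none of these genes passed.

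Between the regions at day 30, 4 adherens junction partners were higher and 3 lower in the ONH out of 14, against 41.8% of all genes called. Ctnnb1, or beta-catenin, was higher (log2FC = 0.61 ± 0.11, adjusted p = 0.000547) and Jup was lower (log2FC = -1.26 ± 0.24, adjusted p = 0.000621). Of 17 tight junction partners 4 were higher and 3 lower, with Cgnl1, or paracingulin, higher (log2FC = 1.63 ± 0.20, adjusted p = 1.73e-05) and Ocln, or occludin, lower (log2FC = -1.95 ± 0.26, adjusted p = 3.16e-05). Of 4 tested desmosome genes 3 were higher, among them Pkp2 (log2FC = 1.47 ± 0.28, adjusted p = 0.000592), and of 11 large or atypical cadherins 3 were higher and 2 lower. Celsr2, a planar cell polarity cadherin, was higher (log2FC = 2.46 ± 0.18, adjusted p = 1.14e-07) and the large cadherin Fat1 was lower (log2FC = -0.64 ± 0.14, adjusted p = 0.00145).

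At day 7, 3 of 14 adherens junction, 3 of 16 tight junction, 1 of 4 desmosome and 3 of 10 large or atypical cadherin genes passed between the regions, against 13.2% of all genes. Of these, 2 adherens junction, 1 tight junction and 2 large or atypical cadherin genes were higher in the ONH. Lower there were 1 adherens junction, 2 tight junction, 1 desmosome and 1 large or atypical cadherin gene. Cgnl1 (log2FC = 2.19 ± 0.44, adjusted p = 0.00885) and Celsr2 (log2FC = 1.17 ± 0.25, adjusted p = 0.0122) were higher in the ONH. The change with time differed between the regions for Jam3 (log2FC = -0.94 ± 0.18, adjusted p = 0.0203), Fat3 and Celsr2, calls that held in 18, 14 and 6 of 22 fits with 1 library left out.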

How the data were processed

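Expression was compared in 22 RNA-seq libraries of HA-immunoprecipitated ribosomal mRNA. The authors aligned reads to mm10 (STAR 2.6.1d), quantified Ensembl transcripts with Salmon 0.14.2 and deposited estimated counts per gene as whole numbers. The authors also deposited log2 values (variance-stabilized with DESeq2 1.34.0), which served as an alternative input to limma. Library depth was 16292489 to 33307092 counts. The limit of 3 counts covers counting error only, and each SE comes from the fit and holds the spread between libraries.

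Counts were tested on the whole table with edgeR 4.0.16 in R 4.3.3 (filterByExpr by group, TMM, quasi-likelihood test, Benjamini-Hochberg adjustment over all genes tested, threshold 0.05, no fold cutoff), in 4 pairwise comparisons and the region by day difference over all groups. The filter asks for a minimum level in as many libraries as the smaller group holds. A gene that is low in either group can therefore be tested through the other. The scripts were tested on simulated data. Replicates are separate pools of mice. At day 30 same-numbered ONH and ONP libraries were assumed to come from the same mice. The correlations of their deviations from the group means were 0.106 to 0.538 over 7 pairs (3 of 7 libraries correlated best with their own number). Day 7 columns carry numbers other than those of the labels and were mapped to their group only. Exon lengths and shared exons were taken from GENCODE M21 (16 of 29367 identifiers had no match). One symbol, Pcdha11, stands for 2 identifiers, and the pseudogene Pcdhgb8 was not protein coding.

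Alternatives were DESeq2 1.42.0, limma-voom and limma (3.58.1), other scalings (RLE, or library size only), looser and stricter filters (at least 1 count in all, or 10 counts per library), a joint fit of the 4 groups, clustered genes summed, the pairs as a block and each library left out. Leaving out ONH day 7 libraries 1 and 4 or ONP day 30 libraries 5 and 7 was chosen after seeing the data. The genes, families, partner lists and marker lists were chosen with earlier results of these data known. Named with values are genes called in a comparison (up to 25 with the smallest adjusted p per comparison), the 3 with the highest level per kilobase in each family, and up to 5 partners called per list and comparison. The 4 genes at an unadjusted p under 0.05 in the ONH, and Cdh6, Pcdhga3 and Pcdhga4, were named after their values were seen. Promoter windows came from the RefSeq table for GRCm38.p6. Day 0 was not analysed here.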

Additional observations from a re-analysis of the deposited data

Results flagged for a closer look

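The change of Pcdh17 from day 7 to day 30 differed between the regions by the test of that difference itself (log2FC = -1.50 for the ONP change minus the ONH change), with the limits given beside it above.

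In 164 sets of 4 or 7 libraries (41 named genes in 4 groups, on the log2 scale with 0.5 added to CPM) 15 had 1 library far from the others by Dixon's criterion, which chance reaches in about 1 set in 20. In ONP day 7 library 2 there were 5 such values. Pcdhga11 (47.7 CPM, the others 28.9 to 30.3 CPM) and Pcdhgb5 (23.0 CPM, the others 12.6 to 13.9 CPM) were high there, while Pcdhga10 (2.35 CPM, the others 5.06 to 5.70 CPM), Pcdhb9 (17.2 CPM, the others 20.8 to 21.2 CPM) and Cdh23 (0.445 CPM, the others 1.59 to 1.95 CPM) were low.

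In the ONP at day 30, Pcdh20 was high in library 6 (11 CPM, the others 5.94 to 7.75 CPM), Pcdhga6 was low in library 4 (12 CPM, the others 16.9 to 21.1 CPM) and Pcdhgb4 was low in library 5 (1.90 CPM, the others 6.78 to 11.2 CPM). In the ONH at day 30, library 3 was high for Cldn3 (18.2 CPM, the others 6.12 to 9.49 CPM) and low for Pcdh17 (7.93 CPM, the others 13.2 to 17.7 CPM). Pcdh11x was low in ONP day 7 library 3 (5.70 CPM, the others 8.34 to 8.78 CPM).

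The rest were genes near the detection limit. Cdh26 reached 4.37 CPM in ONH day 30 library 7 (the others 0 to 0.753 CPM), 0.617 CPM in ONH day 7 library 4 and 0.187 CPM in ONP day 7 library 4, where the other 3 libraries were at 0. Cdh8 had 0.490 CPM in ONP day 7 library 1, with the others at 0.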

How the results depend on the processing

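Among 7411 values of the named genes under all alternatives, none that was called changed direction, 302 lost their call, 113 gained one and 394 uncalled values changed sign. Of 102 calls, 50 held under every alternative.

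In the ONP between day 30 and day 7, where 11 of the 111 genes passed, DESeq2 called 19 and a single fit of all 4 groups called 4 (Cldn10, Pcdh9, Pcdh17 and Cdh20). For ONH vs ONP at day 30, summing the clustered protocadherins left 18 calls in place of 31. The 15 calls of single clustered genes were then replaced by 3 array sums. The alpha and beta sums passed, and the gamma sum did not (log2FC = -0.26, adjusted p = 0.187). For the region by day difference, with 1 call, DESeq2 gave 3 (Pcdh17, Cldn10 and Pcdh9), library size only gave 0, no filter beyond 1 count gave 0, and leaving out ONH day 7 libraries 1 and 4 (Pcdh17 and Pcdhgb1) or ONP day 30 libraries 5 and 7 (Pcdh17 and Cldn10) gave 2 each. The causes were not tested.

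With each library left out in turn the number of calls was 0 to 0 in the ONH between the days, 9 to 14 in the ONP, 24 to 35 between the regions at day 30, 7 to 17 at day 7 and 0 to 3 for the region by day difference. With the replicate block that paired same-numbered libraries, 41 genes passed at day 30 in place of 31, Cldn9 was lost and the region by day difference kept 1 call. No paired analysis was possible between the regions at day 7, because the day 7 columns carry no replicate number of the labels. The days of a region came from different mice and have no pairing.

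Scaling by library size only moved the median log2FC of all genes by 0.11 in the ONP between the days and at day 7 between the regions, where 62.4% in place of 48.2% of all calls were higher in the ONH. At this depth 27 of the 111 genes were too low to be tested.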
